A study of Mus musculus with 6 samples.

Results

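The genes described here are 10 genes of cytotoxic lymphocytes, the natural killer (NK) cells and cytotoxic T cells that kill other cells with granule proteins. They are Gzma, Gzmb, Prf1, Nkg7, Ncr1, Klrb1c, Klrk1, Ccl5, Eomes and Il2rb, chosen by name, and each was matched by its Ensembl identifier among the 22556 genes measured in every mouse. They were brought together because Gzma had been seen to be high in mice given polyI:C, so the values of Gzma chose the set and are given as a description with no test. The question is which lymphocyte markers, if any, were higher along with Gzma.

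Cytotoxic lymphocytes store granzymes, which are serine proteases, together with perforin in secretory granules. On contact with a target cell, perforin makes pores in its membrane and the granzymes enter and start cell death. NK cells recognise targets through receptors encoded in the germline, among them NKp46 (Ncr1), NK1.1 (Klrb1c) and NKG2D (Klrk1), while cytotoxic T cells use the T cell receptor and its CD3 subunits. Both cell types share the granule proteins, the chemokine CCL5, the transcription factor eomesodermin (Eomes) and the receptor subunit through which IL-15 signals (Il2rb), and interferons and double-stranded RNA are known activators of NK cells.

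RNA was sequenced from the pancreases of 6 wild-type C57BL/6 mice aged 8 weeks, 2 in each of 3 groups. Saline mice received saline, AP mice received caerulein (spelled cerulein in the labels), a cholecystokinin analog that induces acute pancreatitis (AP), and polyI:C mice, the name used here for polyI:C-pretreated AP mice, received polyI:C, a synthetic double-stranded RNA, as well as caerulein. No group analysed here received polyI:C without caerulein, so an effect of polyI:C can be read only in mice with caerulein. Values are in TPM, an abundance per unit of transcript length that adds up to a common total in every library.

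The spacing of the low TPM values gave estimates of between 3296141 and 3974424 reads in the saline mice and between 6933691 and 10850311 in the other 4. A member listed at 0 in a saline mouse was therefore measured less finely than in the other groups. In the order saline replicates 1 and 2, AP replicates 1 and 2 and polyI:C replicates 1 and 2, the number of members listed at 0 was 5, 6, 3, 2, 0 and 0. The mice of a group differed by a median of 0.29 (saline), 0.19 (AP) and 0.21 (polyI:C) on the log2 scale. AP replicate 2 stood apart in B cell and lymph node markers, whose values are given beside the results they move with.

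Gzma (ENSMUSG00000023132, chr13:113093825-113100981, minus strand, GRCm38) encodes granzyme A, a trypsin-like protease of NK cells and cytotoxic T cells. It was listed at 0 TPM in both saline and both AP mice, and at 26.9 and 47.0 TPM in the polyI:C mice, a mean of 37.0 ± 14.2 TPM (SD, n = 2). Those values rest on about 71 and 156 reads, taken from the annotated exon length of 1006 bases. For the other members that length was scaled to give whole reads, by between 0.795 (Prf1) and 2.13 (Nkg7). No scaling was fitted for Gzma, so its reads and the limits drawn from them are approximate. The groups did not overlap, and the lower of the polyI:C mice had a level at which the other 4 libraries would have held about 39.6, 32.2, 57.9 and 73.2 reads. A count of 0 allows up to 3 reads, which corresponds to 2.04 and 2.51 TPM of Gzma in the saline mice and 1.40 and 1.10 TPM in the AP mice, and covers counting error only. None of the stretches of 100 bases in its transcripts was found in the transcripts of another gene.

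The promoter of Gzma is shown because it holds a match to the interferon-stimulated response element (ISRE), the site through which type I interferon acts on its target genes, as does that of Ifit1, an interferon-induced gene that was among the 8 genes nearest to Gzma in their values. Ifit1 was picked for display because its window holds matches. The windows of Irf7 and Ifi44, also among those 8 genes, held none, and whether interferon acts on Gzma through its match was not tested. Gzmb is shown as the other granzyme among the members, without a match. Each window holds the 250 bases before the RefSeq start of the gene (GRCm38.p6), written 5′ to 3′ on the strand of the gene, with ISRE matches in capitals (GAAA, any 2 bases and GAAA again, on either strand). The Gzma window is chr13:113100982-113101231 (minus strand), that of Gzmb chr14:56262335-56262584 (minus strand) and that of Ifit1 chr19:34640639-34640888 (plus strand).
Gzma: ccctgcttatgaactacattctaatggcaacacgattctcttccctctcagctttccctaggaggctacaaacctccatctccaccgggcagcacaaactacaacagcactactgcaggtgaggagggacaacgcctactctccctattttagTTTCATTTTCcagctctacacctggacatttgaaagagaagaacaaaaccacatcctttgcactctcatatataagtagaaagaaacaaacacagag
Gzmb: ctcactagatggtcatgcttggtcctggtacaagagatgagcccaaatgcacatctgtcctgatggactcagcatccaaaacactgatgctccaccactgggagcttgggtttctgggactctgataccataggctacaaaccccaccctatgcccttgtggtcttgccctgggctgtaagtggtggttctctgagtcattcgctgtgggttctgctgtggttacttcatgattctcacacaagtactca
Ifit1: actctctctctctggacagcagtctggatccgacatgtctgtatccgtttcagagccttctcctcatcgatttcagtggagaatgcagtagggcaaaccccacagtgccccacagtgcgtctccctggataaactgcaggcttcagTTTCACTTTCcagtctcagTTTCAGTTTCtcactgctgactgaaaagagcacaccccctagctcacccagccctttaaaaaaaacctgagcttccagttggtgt
The match in the Gzma window ended 88 bases before the start. Of the 10 members, 8 had a window (Ccl5 and Il2rb were not in the table), and 2 of these, Gzma and Eomes, held an ISRE match, against 2.98% of all 32851 windows. A RUNX motif (TGTGGT or ACCACA) was found in 7 of the 8 windows, all but that of Eomes, against 14.0% of all windows. A T-box motif (AGGTGT or ACACCT), the site of factors such as eomesodermin, was found in 3 of the 8, those of Gzma, Prf1 and Nkg7, against 11.8%, and a GAS motif (TTCNNNGAA), the site of factors activated by interferon-γ, in 1, that of Nkg7, against 7.02%. These are matches of letters in a window, not sites shown to be bound.

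Gzmb (ENSMUSG00000015437, chr14:56258838-56262260, minus strand) encodes granzyme B, which cleaves caspases in target cells. AP mice had 0.660 and 0.522 TPM and polyI:C mice 4.57 and 3.85 TPM, while the gene was listed at 0 in saline mice. This is about 2 and 2 reads in AP mice and 17 and 18 reads in polyI:C mice. Both polyI:C mice were thus above the other 4, at levels far below those of Gzma. Gzmb rose in polyI:C against saline mice by 3.23 on the log2(TPM + 0.5) scale (standard error 0.60, limma adjusted p = 0.00616, and 0.00444 when all genes were fitted with no filter on low values). Against AP mice the difference was 2.11 (standard error 0.60) and did not pass, with an adjusted p of 0.182 in limma and 0.102 with voom on the estimated reads. Between AP and saline mice it was 1.12 (standard error 0.60, limma adjusted p = 0.187). Gzmb reached the minimum mean of 1 TPM for testing only through the polyI:C mice, with a mean of 0.296 TPM over the other 4, and so did Gzma.

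Prf1 (ENSMUSG00000037202, chr10:61297833-61304680, plus strand) encodes perforin. It was at 0 and 0.410 TPM in saline mice, 0.684 and 1.44 TPM in AP mice and 0.929 and 1.03 TPM in polyI:C mice, on no more than 8 reads in any library. The polyI:C values lay between those of the AP mice. Nkg7 (ENSMUSG00000004612, chr7:43437073-43438249, plus strand), a membrane protein of cytotoxic granules, was at 1.76 and 0.433, 0.481 and 0.190, and 0.980 and 0.779 TPM in the same order of groups. Its highest value was in a saline mouse, so the granule genes Prf1 and Nkg7 did not separate the polyI:C mice from the rest.

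**Figure D1:**
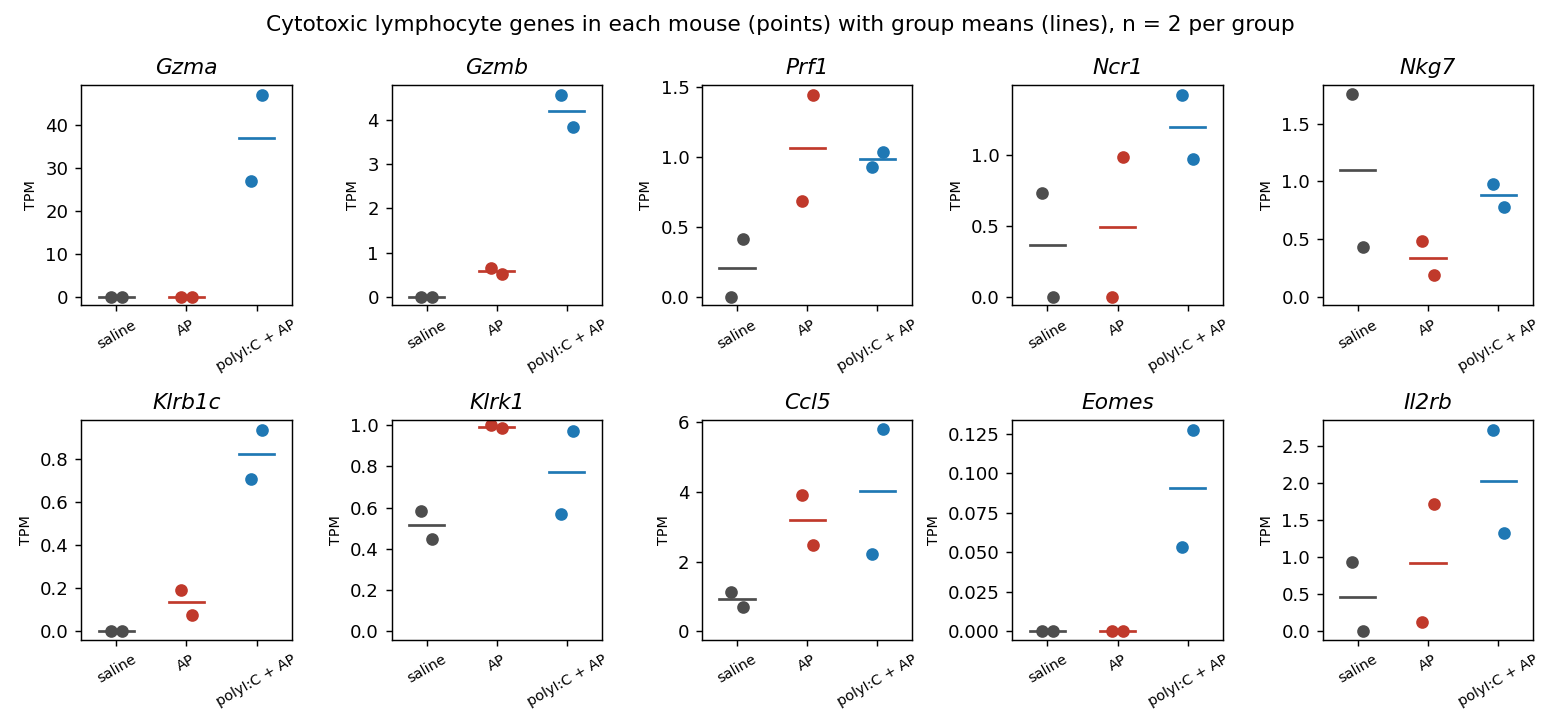
TPM of the 10 genes in each mouse (points) with the group mean (line), 2 mice per group, each panel with its own linear axis from 0. Gzma reaches 26.9 and 47.0 TPM in the polyI:C mice and is at 0 in the other 4, while no other member exceeds 5.81 TPM.

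Among the receptors, Ncr1 (ENSMUSG00000062524, chr7:4337724-4345164, plus strand), whose product NKp46 is an activating receptor of NK cells, was at 0.731 and 0 TPM in saline mice, 0 and 0.987 TPM in AP mice and 1.42 and 0.970 TPM in polyI:C mice. The lower polyI:C value was below that of AP replicate 2. Klrb1c (ENSMUSG00000030325, chr6:128778485-128789215, minus strand), which encodes the NK1.1 antigen that marks NK cells of C57BL/6 mice, was at 0 and 0, 0.192 and 0.0760, and 0.705 and 0.934 TPM. These are about 0, 0, 2, 1, 9 and 15 reads, and both polyI:C mice were above the other 4. Klrb1a or Gm44511 hold 10.8% of its 100-base stretches, so part of its reads could have been misassigned or left uncounted. Klrk1 (ENSMUSG00000030149, chr6:129610323-129623864, minus strand), which encodes NKG2D, a receptor for stress-induced ligands, was at 0.584 and 0.449, 0.998 and 0.987, and 0.570 and 0.970 TPM, and both AP mice were above both polyI:C mice.

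Ccl5 (ENSMUSG00000035042, chr11:83525778-83530518, minus strand), a chemokine of activated lymphocytes that other cells can also make, was at 1.14 and 0.702 TPM in saline mice, 3.90 and 2.47 TPM in AP mice and 2.23 and 5.81 TPM in polyI:C mice. Both groups with caerulein were above the saline mice and overlapped each other. Its log2 differences were 1.36 (standard error 0.69, limma adjusted p = 0.163) in AP against saline mice, 0.20 (adjusted p = 0.939) in polyI:C against AP mice and 1.56 (adjusted p = 0.119) in polyI:C against saline mice.

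Il2rb (ENSMUSG00000068227, chr15:78479256-78495271, minus strand), the receptor subunit shared by IL-2 and IL-15, was at 0.940 and 0 TPM, 0.128 and 1.73 TPM, and 2.72 and 1.33 TPM. AP replicate 2 lay between the polyI:C mice, and the log2 difference of polyI:C against AP mice was 1.04 (standard error 0.82, limma adjusted p = 0.653). Its mean over the 4 mice without polyI:C was 0.699 TPM, so Il2rb too was tested only because of its level in the polyI:C mice. Eomes (ENSMUSG00000032446, chr9:118478212-118486132, plus strand), a transcription factor of mature NK and effector CD8 T cells, was listed at 0 in 4 mice. The polyI:C mice had 0.0534 and 0.127 TPM, which is about 1 and 3 reads. At the lower of these levels the saline libraries would have held about 0.557 and 0.453 reads and the AP libraries about 0.815 and 1.03. A value of 0 there therefore cannot set those mice apart from the polyI:C mice.

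Of the 9 members other than Gzma, 3 reached the mean of 1 TPM and were tested (Gzmb, Ccl5 and Il2rb). Gzmb and Il2rb passed that filter only through the polyI:C mice, so the counts of calls describe those 3 genes and not the members as a set. In AP against saline mice, 0 of these were called with limma (a fold of 2 or more at an adjusted p of 0.05 or less), where 18.2% of all 16814 genes tested were called higher and 4.03% lower. The count at an unadjusted p under 0.05 was 0, and voom also called 0. In polyI:C against AP mice, 0 were called with limma and 0 with voom, against 0.44% of all genes higher and 0.404% lower. Gzmb was the 1 member with an unadjusted p under 0.05 there. In polyI:C against saline mice, 1 member, Gzmb, was called higher, against 16.9% of all genes higher and 2.97% lower. Fitted without the filter, the 6 members under that mean did not pass in any comparison, with the lowest limma adjusted p of 0.0690 for Klrb1c in polyI:C against saline mice (log2 difference 1.39). With 2 mice a group, the smallest two-sided p of an exact permutation test is 0.333, and the adjusted p of a single member therefore leans on variance borrowed from other genes.

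The median log2 difference of the 9 members was 0.48 in AP against saline mice, 0.74 in polyI:C against AP mice and 1.13 in polyI:C against saline mice. The medians over all genes tested were 0.45, 0.04 and 0.48. Of the 9 members, 6 were under the mean of 1 TPM that those genes had to reach. The 2 sets are therefore unlike in level, and no median of low genes was taken. The comparisons between groups share mice, so they are not independent of one another. Both polyI:C mice were above the other 4 for 3 of the 9 members (Gzmb, Klrb1c and Eomes), where 15.1% of all 22556 genes had that order. Eomes had it on about 1 and 3 reads, too few to separate the groups. For 4 of the 9 (those 3 and Nkg7) both polyI:C mice were above both AP mice (24.1% of all genes), and for 1, Klrk1, both were below (19.8%). For 5 of the 9 both AP mice were above both saline mice (43.9% of all genes), and for 7 both polyI:C mice were (45.1%). When AP replicate 2 was left out, the count of 3 became 6, and without polyI:C replicate 2 it became 5, so AP replicate 2 decides the order for Prf1, Ncr1 and Il2rb. Whether fewer cells of a type or less RNA per cell lies behind a level cannot be told apart in RNA of a whole organ.

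**Figure D2:**
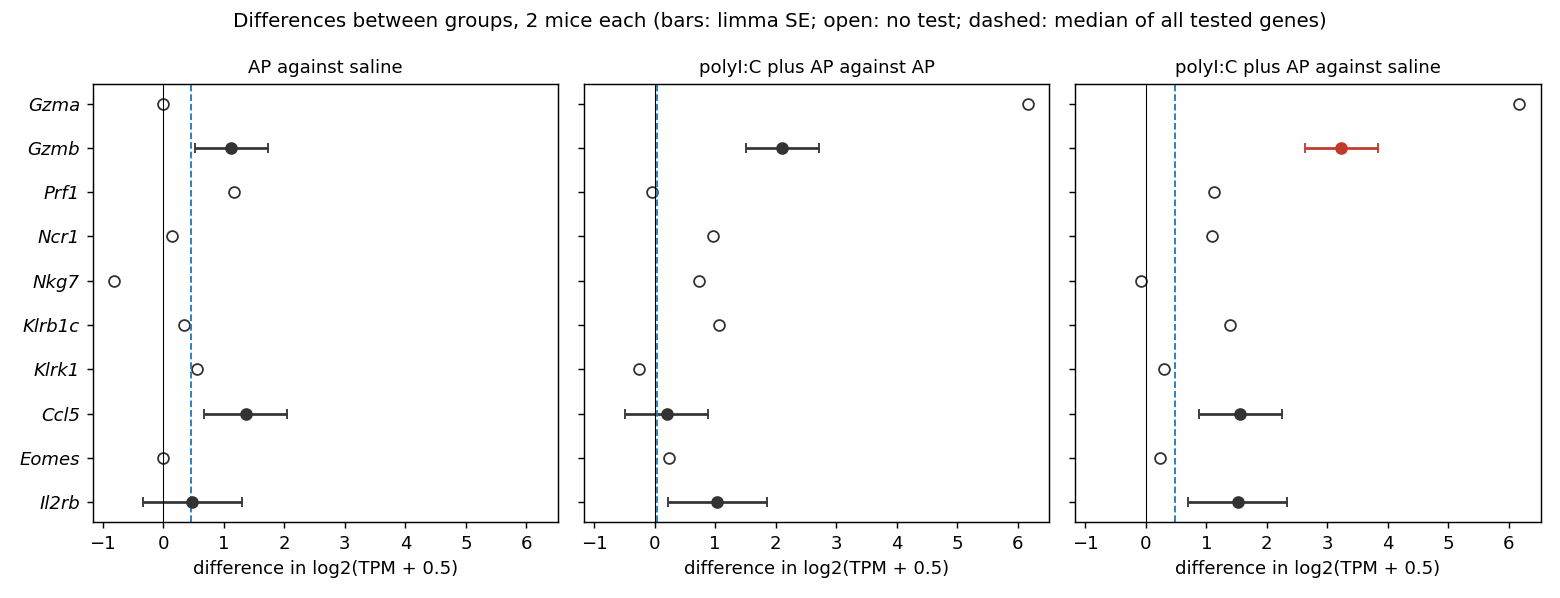
Difference in log2(TPM + 0.5) of each gene in the 3 comparisons, 2 mice per group, with limma standard errors as bars for the genes that were tested and open points for those without a test. The dashed line is the median of all tested genes, 0.45, 0.04 and 0.48 from left to right, and the red point is Gzmb in polyI:C against saline mice, the only one past the threshold.

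The genes nearest to Gzma in their values over the 6 mice were ranked by a fixed measure. Likeness was measured as the root mean square (RMS) difference between the log2(TPM + 0.5) profiles over the 6 mice, each centred on its own mean, among 13507 protein-coding genes tested. The nearest was Ifi27l2b (RMS 0.92), followed by Irf7 (1.04), Ifit3b (1.22), Apol9a (1.25), Gif (1.27), Ifit1 (1.30), Ifi44 (1.32) and Oas1g (1.35). Irf7 is the transcription factor that amplifies type I interferon production, Ifit1 and Oas1g are antiviral effectors induced by interferon, and Gif encodes gastric intrinsic factor, which binds vitamin B12. These genes were picked for their likeness to the gene that chose the set, so the likeness carries no test, and the share of interferon-induced genes among all genes was not counted.

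Unlike Gzma, each of these genes was above 0 in both AP mice. Irf7 was at 0.604 and 0.878 TPM in saline mice, 3.15 and 6.14 TPM in AP mice and 79.0 and 79.2 TPM with polyI:C. Ifit1 was at 1.29 and 3.17, 4.05 and 9.61, and 62.2 and 63.7 TPM, and Gif at 0.891 and 0, 0.609 and 0.482, and 11.9 and 11.4 TPM. All of them were higher in both polyI:C mice than in the other 4, and for all but Gif both AP values also lay above both saline values. Ifit3b, Apol9a and Oas1g have close paralogs, so part of their reads could have been misassigned or left uncounted. Of the 8 genes, 6 had a promoter window, and 4 of these (Ifit3b, Apol9a, Ifit1 and Oas1g) held an ISRE match. The windows of Irf7 and Ifi44 held none.

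Of the members tested, Gzmb ranked 39 of 13507 (RMS 1.74), Il2rb 618 (2.46) and Ccl5 1169 (2.57). Gzmb and Il2rb were among the genes ranked only because of their level in the polyI:C mice, where Gzma was high. Their ranks are therefore a description and carry no test. The measure follows the size of the differences as well as their order, so a gene far below the pseudocount is placed far from Gzma whatever its pattern. Eomes shows this, since it was above 0 in the same 2 mice as Gzma and no others, though on only about 1 and 3 reads. The members under a mean of 1 TPM are therefore not ranked.

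**Figure D3:**
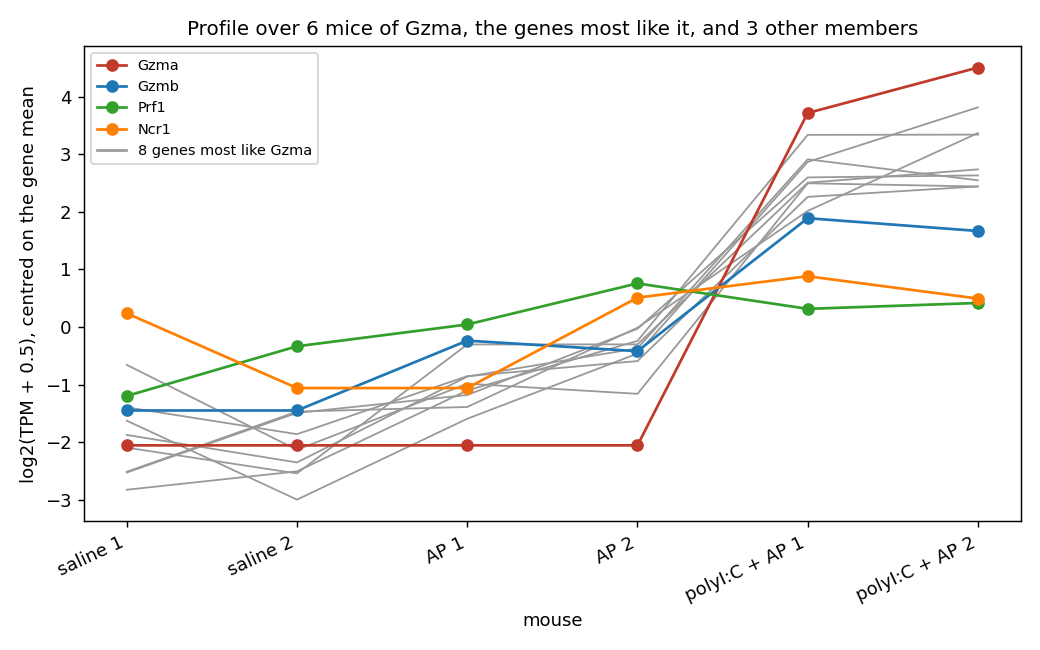
Profiles over the 6 mice of Gzma, 3 other members and the 8 genes most like Gzma (grey), as log2(TPM + 0.5) centred on the mean of each gene; the lines only join the values of a gene. Gzma and the grey genes are high in both polyI:C mice, Gzmb less so, and Prf1 and Ncr1 stay within about 1 unit of their mean in those mice.

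Several other genes of granule storage and killing were, unlike Gzma, already higher in AP mice. Of 15 genes with values, 12 were tested. In AP against saline mice 5 were called higher and 0 lower (median log2 difference 1.01), against 18.2% and 4.03% of all genes tested (median 0.45). In polyI:C against AP mice 0 were called in either direction (median -0.03), against 0.44% higher and 0.404% lower (median 0.04). There 2 were higher and 2 lower at an unadjusted p under 0.05, and voom called 0. In polyI:C against saline mice 4 were called higher (median 0.61), against 16.9% of all genes (median 0.48). The same shares apply to the lists below, and the share of all genes at an unadjusted p under 0.05 was not counted. The largest rises were of Serpinb9, which encodes the inhibitor that shields cells from granzyme B. It was at 12.6 and 16.1 TPM in saline mice, 377 and 391 TPM in AP mice and 540 and 536 TPM in polyI:C mice, a rise of 4.71 in AP and of 5.19 with polyI:C against saline (limma adjusted p of 1.27e-05 and 1.66e-05). The related serpin gene Serpinb6b rose by 4.43 and 5.10, and Stx11, a syntaxin needed for granule release, by 3.94 and 3.20.

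These 3 genes rose with caerulein in mice where Gzma was listed at 0, and none of them is restricted to lymphocytes. Cst7 of the same list was listed at 0 in saline mice, at 2.37 and 2.25 TPM in AP mice and 5.42 and 2.46 TPM with polyI:C. It was called higher in both comparisons against saline (2.49 and 3.07) but not against AP mice (0.57, limma adjusted p = 0.776). For 3 of the 15 genes (Cst7, Serpinb6b and Serpinb9) both polyI:C mice were above the other 4, and for 0 below them, where 15.1% of all genes had them above. Gzmk, a granzyme of memory T cells, was at 0.258 and 0 TPM in saline mice, 0 in both AP mice and 0.432 and 0.114 TPM with polyI:C, on at most 3 reads. Fasl and Gzmm were also low, at up to 0.647 and 4.26 TPM, and Gzmm did not pass in any comparison.

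The NK cell receptor list held 22 genes with values, of which 7 were tested and 11 stayed under 1 TPM in every mouse. In AP against saline mice 4 were called higher (Itga2, Cd244a, Fcgr3 and Slamf7) and 0 lower, against 18.2% and 4.03% of all genes. The median was 1.73 over the 7 tested and 0.28 over all 22. Slamf7 and Cd244a passed the filter only through the AP mice, and the call of Slamf7 (limma adjusted p = 0.0448) was lost without the filter (0.0605). Itga2, an integrin subunit that NK cells share with platelets, epithelium and fibroblasts, rose by 3.92 (limma adjusted p = 2.42e-05), from 1.63 and 2.00 TPM to 31.3 and 37.7 TPM. Fcgr3, an Fc receptor that macrophages and neutrophils carry as well, rose by 2.03, and Cd244a, found on NK and myeloid cells, by 2.24. In polyI:C against AP mice 0 were called in either direction (median -0.79), with 1 gene, Fcgr3, lower at an unadjusted p under 0.05 in limma and 1 gene called lower with voom. In polyI:C against saline mice 1, Itga2, was called higher, where 16.9% of all genes were.

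The sum over the 22 genes was 15.4 and 16.2 TPM in saline mice, 67.8 and 82.4 TPM in AP mice and 50.7 and 50.1 TPM in polyI:C mice, of which Itga2 made up 29.3 and 29.6 TPM in the polyI:C mice.

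The lectin-like receptors, which are closer to a marker of NK cells than the integrin and Fc receptor genes, were low throughout. The sum over their 15 genes was 3.06 and 2.41 TPM in saline mice, 6.28 and 8.66 TPM in AP mice and 9.15 and 5.69 TPM in polyI:C mice, so the 2 groups with caerulein overlapped. Klrd1, which encodes CD94, the partner of NKG2A, was the only one with a mean of at least 1 TPM. It was at 0.655 and 0.537, 2.39 and 2.00, and 1.09 and 1.74 TPM, with a log2 difference of -0.51 between polyI:C and AP mice (standard error 0.67, limma adjusted p = 0.806). Over the 22 genes of the whole NK cell receptor list, both polyI:C mice were above the other 4 for 4 (18.2%) and below them for 1, Cd226. All 4 genes above were among the 15 lectin-like genes (26.7%), where 15.1% of all genes had both polyI:C mice above. These were Klra7 (0.326 and 0, 0 and 0, and 1.45 and 0.723 TPM), Klrb1a, Klrc2 and Klre1, and the last 3 stayed under 1 TPM in every mouse. Klri1 had another order, at 1.68 and 1.77 TPM in AP mice and listed at 0 in the other 4. Its mean was under 1 TPM, and without the filter its log2 difference was 2.15 in AP against saline mice (limma adjusted p = 0.0113) and -2.15 in polyI:C against AP mice (0.103). Members of this family have near-identical copies, so part of their reads could have been misassigned or left uncounted, and their levels could be too low. Both polyI:C mice were above the other 4 in other lists too, for 3 of 15 granule genes and 4 of 20 cytokine genes. This also held for 3 of 10 type 1 innate lymphoid genes and 1 of 4 CD8 T cell genes. The chemokine, NKG2D ligand, transcription factor and plasmacytoid dendritic cell lists each had 1 or 2 such genes. The T cell receptor, CD4 T cell, B cell, mast cell, neutrophil, macrophage and proliferation lists had 0.

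T cell genes gave no call in any comparison. The T cell receptor and signalling list named 20 genes, of which the T cell receptor genes Trac, Trbc1 and Trbc2 had no values. Of the 17 genes with values, 4 were tested (Cd3d, Cd5, Lck and Thy1). In each of the 3 comparisons limma called 0 of them higher or lower, 0 had an unadjusted p under 0.05, and voom called 0. The sum over the list was 13.0 and 14.6 TPM in saline mice, 8.23 and 17.8 TPM in AP mice and 10.4 and 9.07 TPM in polyI:C mice. Both polyI:C mice were above the other 4 for 0 of the 17 genes, against 15.1% of all genes, and 8 of the 17 stayed under 1 TPM in every mouse. Cd3e, a CD3 subunit that every T cell carries, was at 0.284 and 0.349 TPM in saline mice, 0 and 0.0768 TPM in AP mice and 0 and 0.189 TPM with polyI:C, on at most 3 reads in any library.

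The coreceptor genes gave values of the same order. Cd8a, of cytotoxic T cells, was at 0 and 1.40, 0.299 and 0.567, and 0 and 1.28 TPM, with 1 of the polyI:C mice at 0. Cd4 was at 0.983 and 1.07, 0.0746 and 1.71, and 0.365 and 0.822 TPM. In the CD8 T cell list (4 genes with values, 3 tested), the CD4 and regulatory T cell list (6 and 1) and the γδ T cell list (2 and 1), limma and voom called 0 genes in each comparison. The CD8 list genes tested were Cd8b1, Themis2 and Cd27. The γδ list named 7 genes, and its T cell receptor genes had no values. With so few genes tested, the lack of calls cannot show whether these T cells differed between the groups. Sox13, at 6.95 and 6.35, 5.23 and 6.78, and 7.74 and 7.93 TPM, and Cd163l1, at 0.173 TPM or less in every mouse, were the γδ T cell genes with values, and both were highest in the polyI:C mice, an order that 15.1% of all genes had. The 1 gene of the 3 lists with an unadjusted p under 0.05 was Cd27, a costimulatory receptor of T, B and NK cells, with a log2 difference of 1.69 in polyI:C against saline mice (standard error 0.61, limma adjusted p = 0.0688). Cd27 was at 1.44 and 0.197, 2.40 and 1.73, and 3.56 and 2.97 TPM, so both polyI:C mice were above the other 4. Its log2 difference of polyI:C against AP mice was 0.56 (limma adjusted p = 0.753).

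**Figure D4:**
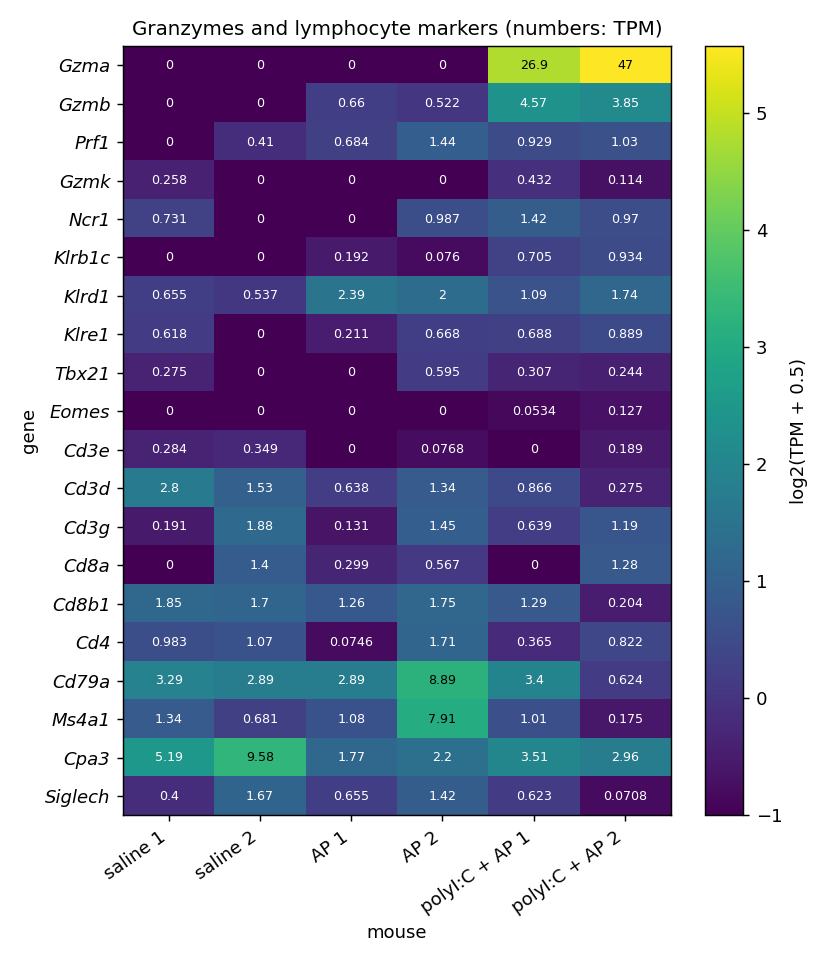
Granzymes and lymphocyte markers in each of the 6 mice, coloured by log2(TPM + 0.5) with the TPM printed in each cell. Gzma stands at 26.9 and 47.0 TPM in the polyI:C mice, Cd3e stays at or under 0.349 TPM in every mouse, and Cd79a and Ms4a1 are highest in AP replicate 2.

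Transcription factors of lymphocytes were followed in a list of 14 genes, 8 of them tested. Tbx21, which encodes T-bet, the factor that drives interferon-γ production, was at 0.275 and 0, 0 and 0.595, and 0.307 and 0.244 TPM, on at most 4 reads in any library. In AP against saline mice Zeb2 was called higher (1.56) and Zbtb16 lower (-1.62, a call lost without the filter, limma adjusted p = 0.0663), and in polyI:C against saline mice Tox was called higher (1.27). The pancreas itself expresses genes of this list, with Zbtb16 at 60.5 and 53.4 TPM in the saline mice. In polyI:C against AP mice limma called 0, with 1 higher and 2 lower at an unadjusted p under 0.05, and voom called 1 lower.

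The list of cytokines that act on cytotoxic lymphocytes and their receptors held 20 genes with values, 10 of them tested. In AP against saline mice 3 were called higher (Il2rg, Il21r and Jak3), where 18.2% of all genes were. In polyI:C against saline mice 3 were called higher (Il18, Jak3 and Il18bp), where 16.9% of all genes were. Il2rg and Il21r were tested only because of their level in the AP mice. Their calls held without the filter (limma adjusted p of 0.0141 and 0.0483). Between polyI:C and AP mice limma and voom called 0, and 1 gene was higher and 2 were lower at an unadjusted p under 0.05. Il15, the cytokine that sustains NK cells, was at 0.843 and 0.691 TPM in saline mice, 1.82 and 1.90 TPM in AP mice and 2.11 and 3.36 TPM with polyI:C. The polyI:C mice had the highest values, with a log2 difference of 1.33 against saline mice that did not pass (standard error 0.50, limma adjusted p = 0.0777). Il18, which with IL-12 induces interferon-γ in NK cells, was at 0 and 2.10, 2.91 and 9.44, and 6.41 and 34.7 TPM, a rise of 3.77 against saline (limma adjusted p = 0.0301) that did not pass without the filter (0.0613). Voom called 1 gene of this list higher in that comparison, where limma called 3. Il12rb2, a subunit of the IL-12 receptor, was at 0.759 and 0.560, 2.07 and 1.15, and 0.254 and 0.672 TPM.

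Of the chemokines and chemokine receptors of lymphocytes (15 genes with values, 12 tested), Cxcl9 was the gene called higher in polyI:C against AP mice. It encodes an interferon-induced ligand of CXCR3, a receptor of activated T and NK cells. It was at 0.420 and 0.517 TPM in saline mice, 0.431 and 1.02 TPM in AP mice and 5.74 and 7.54 TPM in polyI:C mice, a rise of 2.57 (standard error 0.42, limma adjusted p = 0.0497). Cxcl9 was tested only because of its level in the polyI:C mice, and without the filter the call was lost (adjusted p = 0.0732). When either AP mouse or polyI:C replicate 2 was left out, limma called 0 of all genes in that comparison, so none of the calls against AP mice held without them. Cxcl10, another ligand of that receptor, was at 0.280 and 0.172, 0.574 and 2.04, and 1.72 and 0.744 TPM, so the groups with caerulein overlapped. Cxcl16 was higher than in saline mice in both other groups, by 3.76 (AP) and 3.71 (polyI:C).

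In that comparison 2 genes of the list, both of them receptors, were called lower, where 0.404% of all genes were. Ccr1 fell by 3.80 between AP and polyI:C mice (limma adjusted p = 0.00485), from 47.6 and 42.1 TPM to 2.69 and 2.78 TPM, and Cx3cr1 fell by 2.09 (adjusted p = 0.0431, and 0.0595 without the filter, where it did not pass). Other receptors of the list were not called, among them Cxcr3 (-0.78), Cxcr6 (-0.43) and S1pr1 (-0.25), and S1pr5, under 1 TPM, had a difference of 0.37. CCR1 and CX3CR1 are also receptors of monocytes and macrophages. In AP against saline mice the list had 4 genes called higher (median 1.61), where 18.2% of all genes were. In polyI:C against saline mice it had 4 higher and 1 lower (median 0.82), against 16.9% and 2.97% of all genes.

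Ligands of NKG2D, which are induced on stressed cells, were among the genes raised in AP mice, while Klrk1 itself stayed under 1 TPM. Of 6 ligand and adaptor genes tested, 4 were called higher in AP against saline mice (Ulbp1, Raet1d, Tyrobp and Raet1e). The share over all genes was 18.2%, and Raet1d was tested only because of its level in the AP mice. Ulbp1 was listed at 0 in both saline mice, at 5.66 and 5.63 TPM in AP mice, and polyI:C mice had 2.73 and 1.49 TPM. Raet1e was at 5.63 and 9.76, 20.1 and 25.9, and 33.9 and 26.5 TPM. In polyI:C against saline mice 2 were called higher, Ulbp1 and Raet1e, where 16.9% of all genes were. Between polyI:C and AP mice limma called 0, with Ulbp1 and Tyrobp lower at an unadjusted p under 0.05 and 2 genes called lower with voom. Tyrobp, the adaptor of NK and myeloid receptors, stood at 26.0 and 5.64 TPM in saline mice, which is a wide spread.

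Markers of other cells that could hold granzyme transcripts were followed as well. The list of type 1 innate lymphoid and tissue-resident cells held 10 genes, 8 of them tested. In AP against saline mice 3 were called higher (Cd200r1, Tnfsf10 and Tmem176a), where 18.2% of all genes were. Tnfsf10, which encodes the death ligand TRAIL, and Tmem176a were also called higher in polyI:C against saline mice (1.99 and 1.52) and Itga1 lower (-1.04). Cd200r1 fell by 2.92 between AP and polyI:C mice (limma adjusted p = 0.0161, and 0.0282 without the filter). It was tested only because of its level in the AP mice, which bears on both of its calls. In the mast cell and basophil list (7 genes, 3 tested), Cpa3 was called lower in AP against saline mice (-1.61, limma adjusted p = 0.0313), at 5.19 and 9.58, 1.77 and 2.20, and 3.51 and 2.96 TPM, and no other call was made. In the plasmacytoid dendritic cell list (7 genes, 5 tested), Bst2 was called higher in polyI:C against AP mice (2.39, limma adjusted p = 0.00274). Bst2 is induced by interferon in many cells, and the most abundant gene of that list, Klk1, is an acinar gene. Siglech, the most restricted marker of the list, was at 0.400 and 1.67, 0.655 and 1.42, and 0.623 and 0.0708 TPM.

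B cell and lymph node markers moved with AP replicate 2. The sum over 12 genes was 30.7 and 39.1 TPM in saline mice, 19.0 and 130 TPM in AP mice and 54.6 and 17.7 TPM in polyI:C mice. Cd79a, a subunit of the B cell receptor, was at 8.89 TPM in AP replicate 2 and between 0.624 and 3.40 TPM in the other 5 mice. Il2rb, Ncr1 and Prf1 were also higher in AP replicate 2 than in AP replicate 1, and the part of the B cell and lymph node markers in those values was not tested. Gzma was at 0 in that mouse. Of 10 genes tested, limma and voom called 0 in each comparison, with 1 higher in AP against saline mice and 2 lower in polyI:C against AP mice at an unadjusted p under 0.05.

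Myeloid and proliferation markers differed in their order from Gzma. Of 10 macrophage genes, 8 were called higher in AP against saline mice (median 1.89), where 18.2% of all genes were. In polyI:C against AP mice 4 were called lower (Ccr2, Lyz2, Fcgr1 and Csf1r, median -1.54), where 0.404% of all genes were. Adgre1, a macrophage surface gene, was at 32.1 and 11.2, 64.6 and 76.9, and 18.0 and 21.4 TPM. The neutrophil list had 2 of 6 tested genes called higher in AP against saline mice (Retnlg and S100a9, the latter not without the filter). The share over all genes was 18.2%. S100a8 was at 6.26 and 0, 6.18 and 9.40, and 11.6 and 6.16 TPM. Mki67, a marker of dividing cells, was at 1.72 and 2.28, 3.62 and 5.01, and 1.84 and 14.2 TPM, with its highest value in the polyI:C mouse that also had the most Gzma. Its log2 difference against AP was 0.30 (standard error 0.76, limma adjusted p = 0.912). In the proliferation list 2 of 4 tested genes, Cdk1 and Stmn1, were called higher in both comparisons against saline. The shares over all genes were 18.2% (AP) and 16.9% (polyI:C). The part of any of these cell types in the level of Gzma was not tested.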

How the data were processed

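Per the labels and the study's methods, reads had been trimmed (Trimmomatic), aligned to mm10 (STAR) and assigned to genes (HTSeq) by the authors. The authors deposited TPM for 22556 genes in each of the 6 mice, and the step from counts to TPM is not given in the sources used here. The labels name a ribosomal RNA depletion kit and a stranded mRNA kit.

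Symbols, exon lengths and GRCm38 coordinates came from GENCODE M21, in which 22490 of the 22556 identifiers were found. limma 3.58.1 in R 4.3.3 was fitted to log2(TPM + 0.5) of all 6 mice, with 1 coefficient per group, for the 16814 genes that averaged 1 TPM or more. The prior variance followed log2(mean TPM × exon length + 1), and p-values were Benjamini-Hochberg adjusted over all genes tested. Fold changes on this scale understate those of low genes, and for a gene at 0 in a group they depend on the pseudocount. The filter and prior were taken from an earlier analysis that had chosen them on simulated data after a first fit. The members, gene lists and motifs were chosen with earlier results of these data known.

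TPM states no depth. Low values multiplied by gene length fell within 0.1 of whole multiples of a single step in 94.7% to 95.9% of cases per library, which gave the read estimates. The labels place all 6 libraries in the same lane. Nothing in them ties mice that carry the same number to each other, so replicate numbers were not used as pairs. The p-values rest on the spread between these mice together with variance borrowed from other genes through the prior.

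The genes named are the 10 members, the called genes of the lists with the largest differences, markers set by name and the 8 protein-coding genes most like Gzma. Of the markers, Ifng was not analysed here. Genes that make up a count of 5 or fewer, Fasl, Gzmm, Zbtb16, Siglech, Klri1, Cxcr3, Cxcr6, S1pr1 and S1pr5 were named after their values were seen. Marker lists were hand-written, and some of their genes are expressed by other cells of the pancreas. Promoter windows came from RefSeq. Alternatives were other pseudocounts, filters, scalings, priors, samples in the fit, the replicate number as a block, leaving out each mouse, and voom on the estimated reads, which was chosen after seeing the data. Scripts were tested on simulated data. The values of 1 list gene are not reported here.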

Additional observations from a re-analysis of the deposited data

How the results depend on the processing

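The fitted log2 difference of Gzma between polyI:C and AP mice ran from 5.19 with a pseudocount of 1 to 8.48 with a pseudocount of 0.1 and is no bound. Gzmb in polyI:C against saline mice stayed past the threshold under every alternative that tested it, and was not tested with a minimum mean of 5 TPM, which left 0 members called in place of 1. In AP against saline mice 1 member, Gzmb, was called with a pseudocount of 0.1 (adjusted p = 0.0291) and without a trend in the prior (adjusted p = 0.0109), and in polyI:C against AP mice 1, Gzmb, without that trend (adjusted p = 0.0399, limma). Over the other alternatives its adjusted p for polyI:C against AP mice ran from 0.102 to 0.527. Il2rb turned negative in AP against saline mice without saline replicate 2 (-0.28) or AP replicate 2 (-0.43), and Ccl5 in polyI:C against AP mice without AP replicate 2 (-0.09) or polyI:C replicate 2 (-0.41), neither being called. Of 1632 counts over the marker lists under these alternatives, 1473 stayed within 1.5 times. Without the filter, 4 of the 41 list genes called in AP against saline mice were lost, 2 of 9 in polyI:C against AP mice and 2 of 29 in polyI:C against saline mice. The count of members with both polyI:C mice above the rest ran from 3 to 6 when a mouse was left out.

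Counts of all genes moved more. Median-of-ratios scaling gave 1566 higher and 1220 lower in AP against saline mice (3053 and 677 as reported) and 1325 and 982 in polyI:C against saline mice (2838 and 500). It moved the share of calls that were higher from 81.8% to 56.2% and from 85.0% to 57.4%, and the median of all genes from 0.45 to 0.06 and from 0.48 to 0.06, while Gzmb, Ccl5 and Il2rb kept their direction under it. Voom gave 1749 higher in AP and, with polyI:C against saline, 1471 higher and 799 lower. For polyI:C against AP mice (74 higher, 68 lower), the counts higher and lower were 22 and 19 without a trend in the prior, 14 and 14 with a prior following the mean of the log2 values and 114 and 215 with voom, and 44 were higher without a filter. The cause of these shifts was not tested. Leaving out a mouse gave between 1953 and 3072 higher and between 446 and 630 lower in AP against saline mice, between 0 and 48 higher and between 0 and 46 lower in polyI:C against AP mice, and leaves a group with 1 mouse that is assumed to vary like the others.

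With the replicate number as a block, the counts were 2987 and 659, 62 and 62, and 2799 and 488, and 0, 0 and 1 members were called. Mice with the same number did not deviate together, with correlations across genes of 0.0075, -0.0039 and 0.035. Depth limits the saline mice most, where 1 read of a gene of median length is worth 0.216 and 0.266 TPM, against 0.0956 to 0.148 TPM in the others.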
